A study of Mus musculus with 100 samples.

Results

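The genes described here are 7 members of the Nodal signalling pathway: the ligands Nodal, Gdf3 and Gdf1, the secreted antagonists Lefty1, Lefty2 and Cer1, and the transcription factor Foxh1. They are 7 of 23109 gene-level entries in the deposited RNA tables. They were picked by name, as pathway members whose read counts in the embryoid body and whole embryo libraries of this series had already been seen. Their values in those libraries are therefore given as a description, with no test, and tests on them are given only in the trophectoderm, extraembryonic endoderm and neural cultures. Expression is given in CPM, the reads assigned to a gene for each 1000000 reads of its library.

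Nodal is a secreted ligand of the TGF-beta family that signals through activin receptors, with Cripto (Tdgf1) or Cryptic (Cfc1) as co-receptor, to SMAD2 and SMAD3. FOXH1 brings the activated SMADs to target enhancers, and Nodal, Lefty1 and Lefty2 are themselves among the genes switched on in this way. The Lefty proteins and Cerberus-like 1, the product of Cer1, bind the ligand or its co-receptor outside the cell, so that the pathway feeds back on itself. In the mouse embryo it maintains the epiblast, induces mesoderm and definitive endoderm, and later marks the left lateral plate mesoderm, where Lefty2 is expressed, while Lefty1 marks the left floor plate.

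The series asks what the methyltransferase activities of MLL3 and MLL4, enzymes that place methyl marks on histone H3 at enhancers, do in early mouse development. All cultured cells lacked Mll3 on both alleles. The comparison was between Mll3-/-;Mll4flox/flox cells (called flox) and Mll3-/-;Mll4KI/KI cells (called KI, present as the lines 27 and 48). The labels do not spell out KI. Embryonic stem cells, held in medium with 2 kinase inhibitors and LIF, were sampled at day 0, and the embryoid bodies grown from them without LIF at day 4 and day 10. At each of these times there was 1 flox library and 2 KI libraries. Neural cultures, treated with retinoic acid after day 4, were sampled at day 8 as progenitors and at day 16 as neurons. Trophectoderm cultures, abbreviated TE, carried an inducible Cdx2 transgene and were sampled at day 6. Extraembryonic endoderm cultures, abbreviated ExEn, were grown for 5 days with retinoic acid and Activin A, a ligand that uses the same receptors as Nodal. Each of these culture stages had 2 flox and 2 KI libraries. Whole embryos, taken at E8.5 or E9.5, were Mll3flox/KI;Mll4flox/KI;Sox2-Cre (called KI) or Mll3flox/KI;Mll4flox/+;Sox2-Cre (called control), with 3 libraries of each genotype at each stage. Both embryo genotypes thus carried the Cre transgene, which the Sox2 promoter drives in the epiblast, and 1 KI allele of Mll3. How many somites an embryo had is not in the labels.

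The 37 libraries held between 18908148 and 59880727 reads, so that 3 reads corresponded to 0.16 CPM in the shallowest library and to 0.05 CPM in the deepest. The labelled cell types were checked against marker lists. The trophoblast list was summed to 3151 to 3223 CPM in TE flox and to 5301 to 5483 CPM in TE KI, with all 8 markers at 1 CPM or more in both. Cdx2, among these markers, is also the gene of the transgene. The endoderm list reached 1354 to 1383 CPM in ExEn flox but 236 to 240 CPM in ExEn KI, where Ttr had 0 reads in both libraries. The sum of the trophoblast list was also high in the ExEn cultures, at 3108 to 3118 CPM in flox and 3834 to 4536 CPM in KI. In both cultures most of the sum came from the keratin genes Krt8 and Krt18. Their means were 1610.1 and 1272.4 CPM in TE flox and 1853.7 and 1143.5 CPM in ExEn flox. Cdx2, Elf5, Tfap2c and Hand1 were lower in ExEn flox, at means of 3.27, 0.151, 4.96 and 28.9 CPM. In TE flox they were at 28.5, 17.5, 113.3 and 109.6 CPM. Eomes and Gata3 were higher in ExEn flox, at 58.0 and 20.4 CPM against 18.3 and 17.2 CPM in TE flox. The sum is thus mostly a keratin level and is not read as an amount of trophoblast cells. The neuron list was at 1032 to 1039 CPM in day 8 neural flox and at 2688 to 2815 CPM in day 16 neural flox. Nothing in the labels says whether the libraries of a group came from separate cultures, and p-values measure only the spread between them. Fewer cells of a type and less RNA per cell cannot be told apart in bulk libraries.

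Promoter sequences of the members are shown because FOXH1 and SMAD proteins are the pathway's own factors at its target genes. RefSeq windows on GRCm38.p6, from 250 bases before to 50 bases after a transcription start, were matched by symbol for 3 of the 7 members, Nodal, Cer1 and Gdf1, the last with 2 starts. Lefty1, Lefty2, Gdf3 and Foxh1 were not matched. The windows were searched on both strands for the FOXH1 motif AATNCACA and the SMAD motif CAGAC, and capitals mark the matches. These motifs do not overlap each other here. The windows lie at chr10:61417722-61418021 on the plus strand (Nodal), chr4:82885102-82885401 on the minus strand (Cer1), chr8:70315525-70315824 on the plus strand (Gdf1, start 1) and chr8:70329515-70329814 on the plus strand (Gdf1, start 2).
Nodal: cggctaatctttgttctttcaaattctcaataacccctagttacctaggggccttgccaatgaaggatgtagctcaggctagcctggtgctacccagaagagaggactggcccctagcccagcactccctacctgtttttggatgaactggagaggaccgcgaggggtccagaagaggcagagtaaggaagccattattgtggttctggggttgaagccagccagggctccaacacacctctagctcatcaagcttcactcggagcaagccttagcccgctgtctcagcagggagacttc
Cer1: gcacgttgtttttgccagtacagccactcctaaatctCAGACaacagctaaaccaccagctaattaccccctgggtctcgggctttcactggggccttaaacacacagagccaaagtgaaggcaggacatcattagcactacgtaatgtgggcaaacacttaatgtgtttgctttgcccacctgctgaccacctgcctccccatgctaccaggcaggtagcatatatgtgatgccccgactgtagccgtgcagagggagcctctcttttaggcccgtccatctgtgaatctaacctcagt
Gdf1 start 1: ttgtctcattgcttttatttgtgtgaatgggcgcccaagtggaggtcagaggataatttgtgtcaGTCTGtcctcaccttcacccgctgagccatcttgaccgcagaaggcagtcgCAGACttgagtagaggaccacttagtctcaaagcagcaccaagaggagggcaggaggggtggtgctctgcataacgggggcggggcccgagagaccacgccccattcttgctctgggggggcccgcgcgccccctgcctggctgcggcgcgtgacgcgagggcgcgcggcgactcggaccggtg
Gdf1 start 2: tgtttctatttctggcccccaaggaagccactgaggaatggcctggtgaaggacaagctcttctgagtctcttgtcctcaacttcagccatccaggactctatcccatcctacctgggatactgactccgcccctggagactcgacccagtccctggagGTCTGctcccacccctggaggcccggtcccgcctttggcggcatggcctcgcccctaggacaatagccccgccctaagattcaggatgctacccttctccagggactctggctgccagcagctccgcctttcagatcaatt

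The Cer1 window held CAGAC at base 38, which is position -213 from the start. The first Gdf1 window held it at base 117 on the plus strand and at base 66 on the minus strand, written there as GTCTG, and the second Gdf1 window held it at base 160 on the minus strand. The Nodal window held neither motif, and no member's window held the FOXH1 motif. Of 32851 RefSeq windows of 300 bases, 49.6% held CAGAC and 3.6% held AATNCACA. A match is a description of these letters, not evidence of binding, and the absence of one says only that the letters are not in this window. The first Gdf1 window is also the window of Cers1, a ceramide synthase gene.

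On the transcript used for Gdf1 here, its reads could not be separated from those of Cers1. Both proteins are encoded on 1 bicistronic transcript, and the Gdf1 transcript with most reads had the same read count as the Cers1 transcript in all 37 libraries. A shorter Gdf1 transcript, which lies within the longer one, held between 50.3% and 98.1% of the longer transcript's reads. That share was 95.7% in E8.5 KI and 95.2% in E8.5 control embryos, and it was 53.2% and 51.7% in day 16 neural KI and flox cultures. Values called Gdf1 below are reads on the longer, joint transcript. The share of them within the shorter Gdf1 transcript differed between materials, so they are not the same quantity in every group. Lefty1 and Lefty2 are close paralogs, and how the counting treated reads that fit both is not given in the sources used here.

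In undifferentiated embryonic stem cells the antagonists Lefty1 and Lefty2 were several-fold lower in KI than in flox, whereas the ligand Nodal was not. At day 4 the KI embryoid bodies had almost no Cer1 transcript, while the other 6 members lay within 2-fold of flox. By day 10 all members but Gdf1 were at 5.63 CPM or less in both genotypes. With 1 flox library at each time there is no test of a single day, and intervals given below cover counting error only.

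Nodal stood at 80.1 CPM in flox stem cells and at 115.2 and 107.6 CPM in KI lines 27 and 48. At day 4 it was 102.0 CPM in flox and 104.4 and 105.3 CPM in KI. At day 10 it was 1.51 CPM in flox and 4.55 and 3.58 CPM in KI. The ligand was thus kept from day 0 to day 4 in both genotypes and was nearly gone by day 10, where the KI lines lay 2.66-fold above flox (95% counting interval 1.87 to 3.86). Gdf3, a related ligand of pluripotent cells that can also block BMP signals, was 103.3 CPM in flox and 74.2 and 75.2 CPM in KI at day 0. At day 4 Gdf3 was 16.4 CPM in flox and 29.5 and 32.5 CPM in KI. At day 10 it was 0.194 CPM in flox, which is 5 reads, and 0.767 and 0.791 CPM in KI. Gdf3 was therefore lower at each later day in both genotypes, with KI below flox at day 0 and above it at day 4 and day 10. Gdf1, the co-ligand with which Nodal forms heterodimers in the node, went from 3.38 CPM in flox and 1.95 and 1.89 CPM in KI at day 0 to 8.27 CPM in flox and 11.3 and 10.4 CPM in KI at day 4. At day 10 Gdf1 was 9.93 CPM in flox and 7.36 and 8.96 CPM in KI.

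Lefty2 was the most abundant member in flox stem cells, at 746.1 CPM, against 79.2 and 95.6 CPM in the KI lines, 8.53-fold lower (counting interval 8.24 to 8.83). At day 4 it was 148.9 CPM in flox and 160.7 and 166.1 CPM in KI. At day 10 it was 0.931 CPM in flox and 2.71 and 1.71 CPM in KI. The difference at day 0 was thus not seen at day 4, where both KI lines lay just above flox. Lefty1 was 207.7 CPM in flox stem cells and 47.1 and 43.8 CPM in KI, 4.57-fold lower (counting interval 4.34 to 4.82). At day 4 Lefty1 was 107.4 CPM in flox and 65.6 and 60.3 CPM in KI. At day 10 it was 1.24 CPM in flox and 0.972 and 2.83 CPM in KI, so that flox lay between the lines. Lefty1 stayed below flox at day 4, by less than at day 0.

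Cer1, a marker of anterior visceral and definitive endoderm in the early embryo, had 0 reads in all 3 stem cell libraries. At day 4 it was 13.8 CPM in flox (271 reads), against 1 read in KI line 27 and 0 reads in line 48. The ratio of flox to KI was 609, with a counting interval of 108 to 24133. At day 10 it had 2 reads in flox and 0 reads in both KI libraries. Cer1 transcript was therefore seen above a few reads in this course only in flox at day 4. Foxh1 was 53.9 CPM in flox and 61.4 and 61.0 CPM in KI at day 0. At day 4 it was 150.2 CPM in flox and 115.5 and 111.0 CPM in KI, the highest levels of the gene in the series. At day 10 it was 3.37 CPM in flox and 5.63 and 3.37 CPM in KI. The SMAD partner thus peaked at day 4 in both genotypes.

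**Figure D1:**
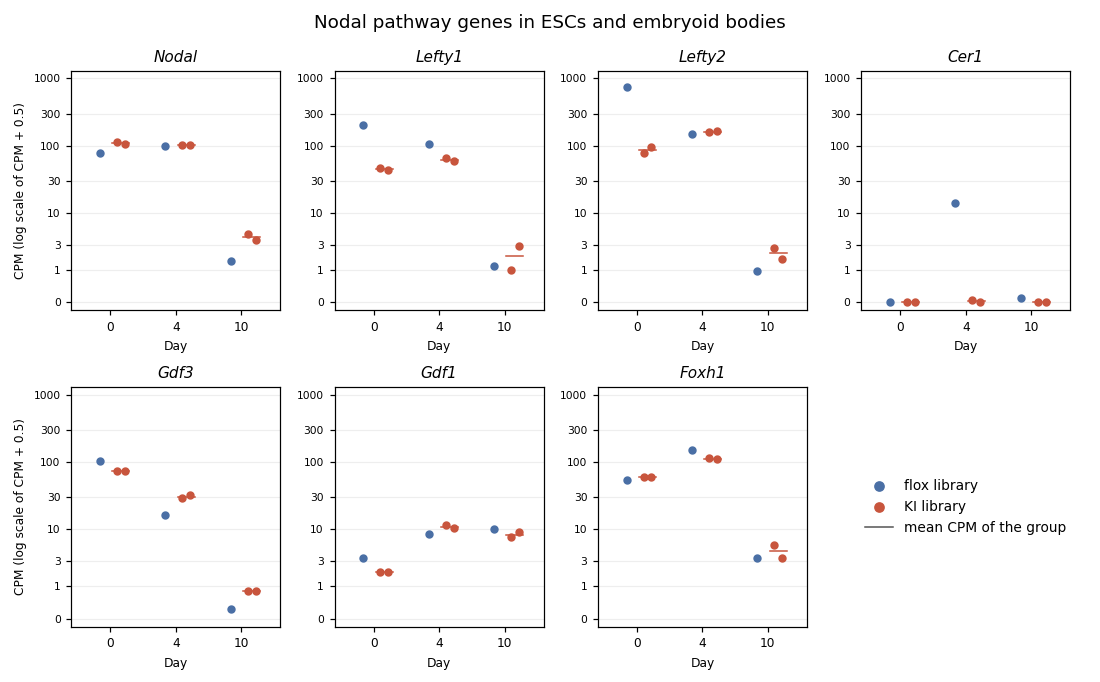
CPM of each member, on a log scale of CPM + 0.5, at day 0, 4 and 10 of the embryoid body course, with 1 point for each library and a line at the group mean. Lefty2 at day 0 stood at 746.1 CPM in flox and at 79.2 and 95.6 CPM in KI, and Cer1 at day 4 stood at 13.8 CPM in flox with at most 1 read in a KI library.

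Counting a gene as past 2-fold when both KI lines lay at least 2-fold from flox on CPM + 0.5, Lefty1 and Lefty2 were lower at day 0, Cer1 was lower at day 4 and Nodal was higher at day 10. Of all genes at 1 CPM or more in any library of the day, 7.68% were past 2-fold in either direction at day 0, 5.88% at day 4 and 7.42% at day 10. The members were chosen with these values known, so nothing is read from their count. Markers differed as well. Here and below, a marker counts as higher or lower in KI when its KI and reference libraries did not overlap. With 1 flox library this is a loose rule, and the share over all genes is given for the embryos only. At day 0 all 8 pluripotency markers were lower in KI (summed 3398 to 3638 CPM against 4348 CPM) and 8 of 10 endoderm markers were higher (15.6 to 16.8 CPM against 9.94 CPM). The sizes differed, with Sox2 at a mean of 320.8 against 623.8 CPM. Pou5f1 lay close to flox, at 1392 to 1429 against 1478 CPM, as did Nanog, at 363.3 to 408.8 against 422.8 CPM. Fgf5 was at low counts, with a mean of 0.084 against 0.264 CPM. Only 3 of the 10 endoderm markers reached a mean of 1 CPM in KI, and 2 in flox, so most of them were at low counts. At day 4, 7 of 8 pluripotency markers were higher in KI (1649 to 1729 CPM against 962.1 CPM). At day 4, 6 of 10 endoderm markers (109.2 to 116.3 CPM against 197.4 CPM) and 5 of 6 node and notochord markers (308.0 to 336.6 CPM against 539.6 CPM) were lower. So were 5 of 6 lateral plate markers (89.4 to 95.6 CPM against 223.0 CPM) and 5 of 8 trophoblast markers (824.1 to 890.1 CPM against 2253 CPM). Higher in KI at day 4 were 2 endoderm and 2 trophoblast markers. At day 10, 8 of 10 endoderm markers (1227 to 1401 CPM against 866.8 CPM), 6 of 8 trophoblast markers (1162 to 1794 CPM against 752.3 CPM) and 4 of 6 lateral plate markers (986.1 to 1007 CPM against 701.8 CPM) were higher in KI. Of the pluripotency markers at day 10, 4 of 8 were higher, Pou5f1 at a mean of 9.61 against 3.41 CPM, and 2 were lower. Their part in the member differences was not tested.

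The 26 other pathway genes were taken from a list of ligands, receptors, convertases, antagonists, SMADs and targets. They too were listed with earlier results of these data known, so shares of them called are descriptions. In edgeR's quasi-likelihood test with day as a factor, 0 of them had a KI effect shared by the days. That fit has 1 KI term, so effects that differ by day, such as those of Foxa2 below, are averaged and add to the spread. It also counts each KI line as a separate library at each day. At an unadjusted p under 0.05 there were 5, and DESeq2 called 1. Without the day 4 flox library 3 were called, and 1 without the day 10 flox library or day 10 KI 27. Over all genes of that fit 0.73% had such a shared effect. On single days, 0 of 21 list genes at 1 CPM or more were past 2-fold at day 0. At day 4, 4 of 23 were lower in KI, namely the co-receptor Cfc1, the activin antagonist Fst and the targets Lhx1 and Foxa2. At day 10, 3 of 24 were higher, namely Inhba, Eomes and Foxa2. The list's median log2 ratio at day 4 was -0.28, beside -0.02 over all genes.

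Within the KI lines the course itself could be tested for these genes. From day 0 to day 4, 13 of 25 tested rose and 5 fell, beside 50.3% of all genes changed. The largest rises were those of Lhx1 (log2 change 9.94, SE 0.37, edgeR adjusted p = 2.49e-06) and Mixl1 (6.27, SE 0.25, edgeR adjusted p = 5.02e-06), both mesendoderm targets. The convertase gene Pcsk6 fell by 2.05 on the log2 scale, and Inhbb, which encodes an activin subunit, fell by 1.90. From day 4 to day 10, 12 rose and 10 fell, beside 73.3% of all genes. Inhba rose by 6.01 and Inhbb by 3.63 on the log2 scale, while Gsc fell by 6.88 and Mixl1 by 6.61. The activin subunit genes thus rose over the interval in which Nodal went from 104.4 and 105.3 CPM to 4.55 and 3.58 CPM.

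At E8.5 the KI embryos held far more Lefty2 than the controls, and more Foxh1, Nodal and Lefty1. A day later none of these 4 differed beyond the range of the libraries, whereas Cer1 was undetected in all 3 KI embryos. Gdf1 was alike at E8.5, and its 3 KI values lay above the 3 control values at E9.5.

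Lefty2 at E8.5 was 23.6, 13.7 and 9.39 CPM in KI (1047 reads in all) and 0.0995, 0.149 and 0.0476 CPM in control (7 reads in all). Summed over the embryos KI was 151-fold higher, with a counting interval of 73.2 to 378. The embryo titles share a number between 1 KI and 1 control embryo at E8.5, and within the 3 numbers the log2 ratio of Lefty2 on CPM + 0.5 was 5.33, 4.45 and 4.17. Every KI embryo was thus far above every control. Lefty1 at E8.5 was 1.64, 1.00 and 0.623 CPM in KI (73 reads) and 0.199, 0 and 0.191 CPM in control (8 reads), 9.24-fold higher in KI (counting interval 4.45 to 22.2). Lefty1 was therefore much rarer than Lefty2 in the same KI embryos. Compared per length of transcript, in the deposited RPKM (read counts scaled by transcript length and library size), Lefty2 was 9.35 times Lefty1 there, against 1.25 times in KI stem cells.

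Nodal at E8.5 was 1.06, 0.773 and 1.69 CPM in KI (79 reads) and 0, 0.298 and 0.476 CPM in control (18 reads), 4.44-fold higher in KI (counting interval 2.64 to 7.88). Foxh1 at E8.5 was 25.9, 22.4 and 20.2 CPM in KI and 13.6, 11.0 and 8.38 CPM in control, 2.09-fold higher (counting interval 1.91 to 2.28). Within the 3 title numbers the log2 ratio of Foxh1 was 0.91, 0.99 and 1.22. Ligand and cofactor were both higher in every KI embryo than in any control. Foxh1 was far better covered than the ligand. Cer1 at E8.5 was 0.177, 0.454 and 1.11 CPM in KI (39 reads) and 4.18, 0.707 and 1.72 CPM in control (139 reads). The ranges of Cer1 overlapped, although the KI embryo was the lower of the pair within each title number, with log2 ratios of -2.79, -0.34 and -0.46. Gdf1 was 25.4, 30.4 and 24.6 CPM in KI and 30.0, 27.2 and 23.4 CPM in control. Gdf3 had 0 or 1 read in each KI embryo and 2 in each control, too few to compare.

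At E9.5 Lefty2 was 0, 0.515 and 0 CPM in KI and 0.199, 0 and 0 CPM in control. Lefty1 was 0.414, 0.429 and 0 CPM in KI and 0.516, 0.594 and 0.0895 CPM in control. Nodal was 0, 0.429 and 0.354 CPM in KI and 0.238, 0.445 and 0.0895 CPM in control. For these 3 genes the genotypes overlapped and every embryo was below 1 CPM. Foxh1 at E9.5 was 3.85, 3.73 and 3.54 CPM in KI and 1.47, 1.11 and 4.65 CPM in control. Its direction differed between title numbers, with a log2 ratio of 1.26 in the number that holds 2 embryos of each genotype and -0.35 in the number that holds 1 of each. Cer1 at E9.5 had 0 reads in the 3 KI embryos and stood at 0.238, 0.928 and 0.716 CPM in control (47 reads). With the KI group set at 3 reads, Cer1 was 14.7-fold lower in KI, a value without the counting error of the control reads. Gdf1 was 13.5, 18.1 and 13.5 CPM in KI and 12.1, 12.4 and 10.6 CPM in control. Gdf3 had at most 2 reads in any E9.5 embryo.

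**Figure D2:**
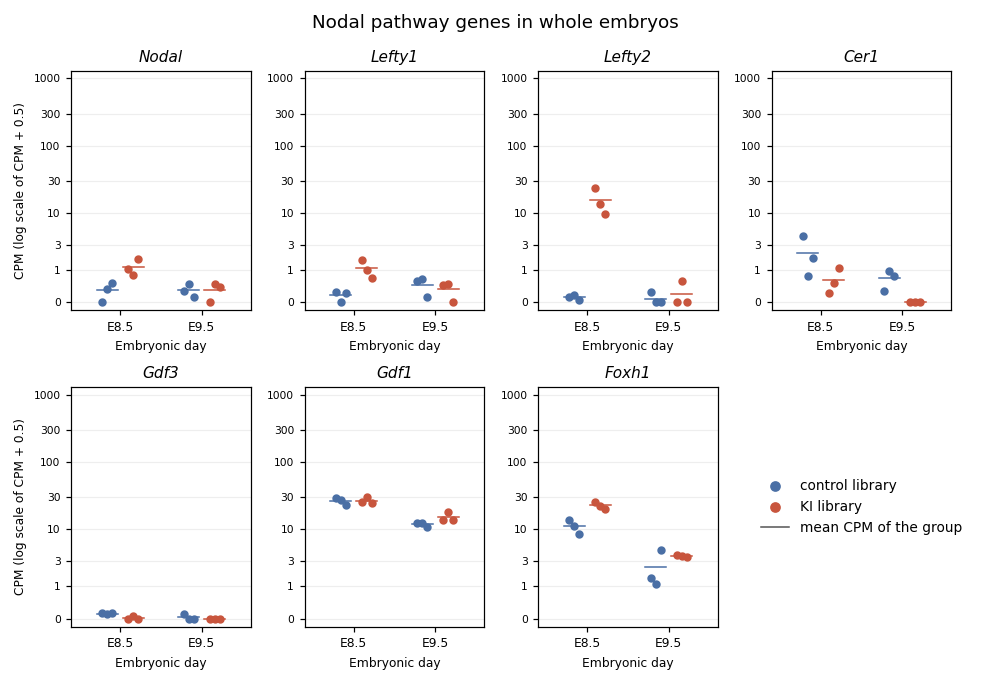
CPM of each member, on a log scale of CPM + 0.5, in whole embryos of both stages, E8.5 and E9.5, with 1 point for each embryo library and a line at the group mean. The KI points of Lefty2 at E8.5 (9.39 to 23.6 CPM) stand above all other embryos, and those of Cer1 at E9.5 lie at 0.

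Of the members at 1 CPM or more in any embryo of the stage, Nodal, Lefty1, Lefty2 and Foxh1 at E8.5 and Gdf1 at E9.5 had KI and control ranges that did not overlap. Among all genes at that level, 25.3% had such separate ranges at E8.5 and 45.5% at E9.5, and the members were chosen with these values known. Cer1 at E9.5, also separate, lay below 1 CPM in every embryo. All 6 lateral plate mesoderm markers were higher in KI, at 472.9 to 577.0 CPM summed against 248.3 to 283.2 CPM at E8.5 and at 401.3 to 449.6 CPM against 143.8 to 203.2 CPM at E9.5. None of 6 node and notochord markers was separate at E8.5 (94.7 to 108.6 CPM against 73.9 to 132.6 CPM), and 3 of 6 were lower in KI at E9.5 (43.3 to 71.3 CPM against 73.2 to 84.0 CPM). Of 10 endoderm markers, 4 were higher in KI at E8.5 and 8 at E9.5 (302.2 to 407.2 CPM against 133.0 to 141.5 CPM). Of 5 neural progenitor markers, 3 were lower in KI at E8.5 and all 5 at E9.5 (229.6 to 276.4 CPM against 467.0 to 623.5 CPM). Their part in the member differences was not tested.

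The other pathway genes were listed with earlier results of these data known, so their counts here are descriptions. Of these genes, 5 of 25 tested were higher in E8.5 KI embryos and 0 lower, beside 5.46% of all genes changed. They included Pmepa1, a feedback inhibitor (log2 change 2.29, SE 0.35, edgeR adjusted p = 0.000569), Cfc1, the co-receptor used in the lateral plate (1.91, SE 0.52, edgeR adjusted p = 0.0394), Furin and Smad7. At an unadjusted p under 0.05 there were 10, and DESeq2 called 6. Without KI embryo 3 there were 3 calls in place of 5. With the title number as a replicate block, 1304 genes changed at E8.5 in place of 843. At E9.5, 6 of 25 were higher and 0 lower, beside 29.5% of all genes. They included Tdgf1 (3.08, SE 0.80, edgeR adjusted p = 0.00658), Acvr1b, Furin, Fst and Smad7. The list's median log2 fold change was 0.10 at E8.5 and 0.18 at E9.5, beside -0.01 and 0.01 over all genes.

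The passage from E8.5 to E9.5 was read from the control embryos, which carry the Cre transgene and 1 KI allele of Mll3 as well. Foxh1 went from 13.6, 11.0 and 8.38 CPM to 1.47, 1.11 and 4.65 CPM, and Gdf1 from 30.0, 27.2 and 23.4 CPM to 12.1, 12.4 and 10.6 CPM. Both were lower in every E9.5 control than in any E8.5 control. Cer1 overlapped between the stages. Of the other pathway genes, 5 rose and 6 fell between the stages in control embryos, beside 24.2% of all genes. The co-receptor genes fell most, Cfc1 by 5.05 and Tdgf1 by 4.75 on the log2 scale (edgeR adjusted p = 0.000282 and 8.78e-05), while Pmepa1 rose by 3.68.

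In TE cultures 5 of 6 tested members were lower in KI than in flox, across ligands, antagonist and cofactor, where 50.9% of all genes changed. In ExEn cultures 3 of 6 were lower, where 35.5% of all genes changed, among them Foxh1, which was at 1.08 CPM or less in KI. Cer1 passed the filter on low counts in neither culture.

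Nodal in TE was 58.2 and 57.6 CPM in flox and 10.5 and 20.0 CPM in KI lines 27 and 48. It was lower in KI by a log2 fold change of -1.90 (SE 0.26, edgeR adjusted p = 0.000774). In ExEn, Nodal was 23.9 and 27.8 CPM in flox and 13.2 and 10.7 CPM in KI (log2 change -1.14, SE 0.28, edgeR adjusted p = 0.0179). KI and flox did not overlap for the ligand in either culture. The ExEn call was lost with no filter on low counts and when flox library 2, KI 27 or KI 48 was left out, with values of -1.14, -1.03, -1.29 and -1.01 (edgeR or DESeq2 adjusted p from 1.07e-06 to 0.121 over its 8 alternatives). Gdf3 in TE was 11.2 and 11.8 CPM in flox and 3.78 and 5.37 CPM in KI (-1.30, SE 0.27, edgeR adjusted p = 0.00121). In ExEn it was 0.0969 and 0.409 CPM in flox and 0.188 and 0.202 CPM in KI and did not pass the test (edgeR adjusted p = 0.734). Gdf3 thus differed in TE, the culture in which it was well above the depth limit.

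Gdf1 in TE was 8.27 and 6.72 CPM in flox and 4.91 and 4.72 CPM in KI (log2 change -0.61, SE 0.22, edgeR adjusted p = 0.0343). The call was lost with DESeq2 and without flox library 1, KI 27 or KI 48, at -0.62, -0.48, -0.66 and -0.58 (edgeR or DESeq2 adjusted p from 0.0123 to 0.194 over its 8 alternatives). In ExEn, Gdf1 was 3.63 and 3.73 CPM in flox and 4.46 and 5.40 CPM in KI, which did not pass the test (0.39, SE 0.24, edgeR adjusted p = 0.232). The difference of these 2 effects, TE minus ExEn, was -0.996 (SE 0.33, edgeR adjusted p = 0.0286). That difference was called in 6 of 12 alternatives (edgeR or DESeq2 adjusted p from 0.0124 to 0.105) and was lost with DESeq2 and without any 1 of TE flox 1, TE KI 48, ExEn flox 1, ExEn flox 2 and ExEn KI 48, with values of -1.01, -0.87, -0.97, -1.01, -1.04 and -0.87.

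Lefty1 in TE was 38.0 and 35.0 CPM in flox and 5.67 and 10.6 CPM in KI (log2 change -2.13, SE 0.22, edgeR adjusted p = 4.30e-06). In ExEn it was 7.31 and 7.82 CPM in flox and 1.22 and 1.36 CPM in KI (-2.58, SE 0.31, edgeR adjusted p = 3.34e-05). The antagonist was lower in both cultures under all 8 alternatives of each. Lefty2 in TE was 26.7 and 23.3 CPM in flox and 7.88 and 22.7 CPM in KI lines 27 and 48, so that only line 27 lay clearly below flox. It did not pass the test (-0.68, SE 0.45, edgeR adjusted p = 0.261). Without TE KI 48 it was lower in KI by -1.63 (edgeR or DESeq2 adjusted p from 2.62e-05 to 0.623 over the 8 alternatives). In ExEn, Lefty2 was 2.08 and 2.76 CPM in flox and 0.328 and 0.606 CPM in KI (-2.40, SE 0.90, edgeR adjusted p = 0.0924). DESeq2, a fit of the ExEn libraries alone and a sum over transcripts each called it (8 alternatives, adjusted p from 0.00251 to 0.410). Cer1 in ExEn had 0 reads in both KI libraries and was 0.436 and 0.409 CPM in flox (17 reads). With the KI group set at 3 reads it was 5.79-fold lower in KI, a value without the counting error of the flox reads. In TE, Cer1 had 4 and 2 reads in flox and 0 and 2 in KI.

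Foxh1 in TE was 28.1 and 31.5 CPM in flox and 7.05 and 13.0 CPM in KI (log2 change -1.54, SE 0.24, edgeR adjusted p = 0.000295). In ExEn it was 22.0 and 21.7 CPM in flox and 1.08 and 0.556 CPM in KI, the largest change of a member in a tested comparison (-4.75, SE 0.34, edgeR adjusted p = 2.38e-06). On reads pooled over the libraries of a group, the ExEn flox level was 26.4-fold the KI level (counting interval 18.7 to 38.4). The KI effect on Foxh1 was smaller in TE than in ExEn by 3.21 on the log2 scale (SE 0.44, edgeR adjusted p = 0.000263), and this held under all 12 alternatives. Per transcript length, in RPKM, Foxh1 was 1.46 times Nodal in ExEn flox and 0.119 times Nodal in ExEn KI. The relation of factor to ligand thus turned over in ExEn KI, whereas in TE it was 0.891 in flox and 1.14 in KI.

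**Figure D3:**
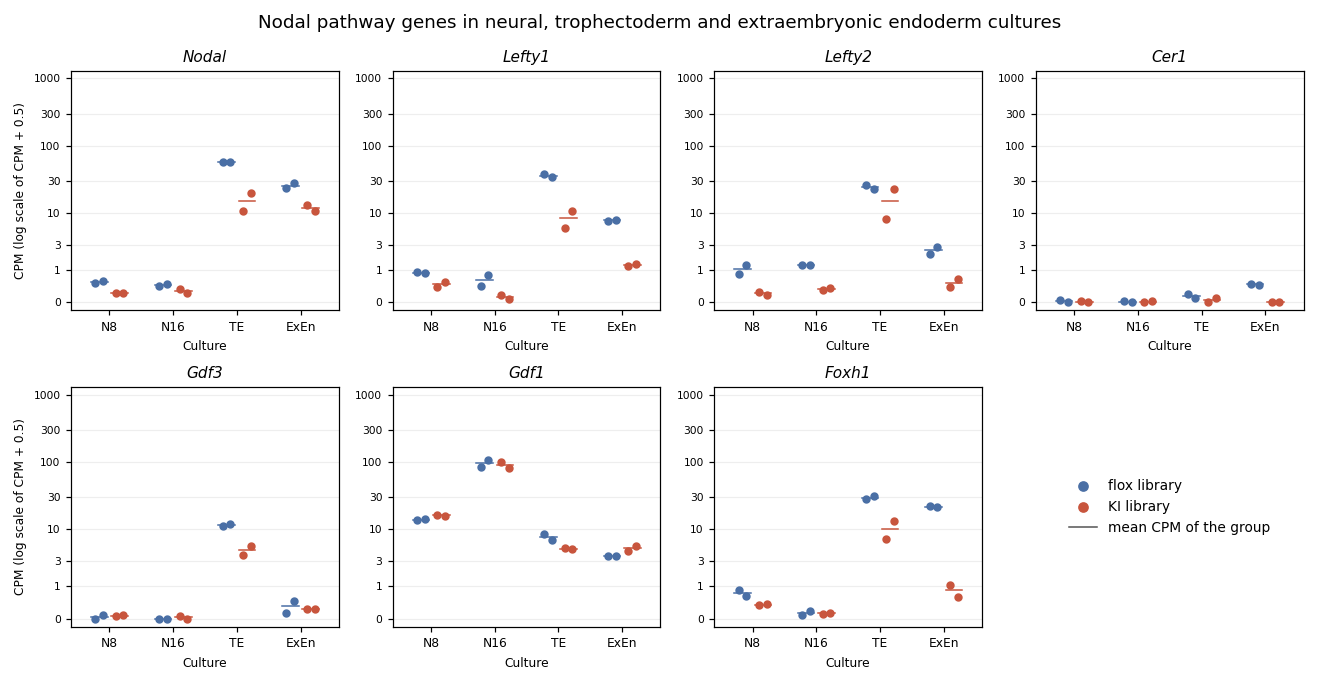
CPM of each member, on a log scale of CPM + 0.5, in neural, TE and ExEn cultures, with 1 point for each library and a line at the group mean. Foxh1 in ExEn stood at 22.0 and 21.7 CPM in flox and at 1.08 and 0.556 CPM in KI, and Lefty2 in TE shows the KI lines apart at 7.88 and 22.7 CPM.

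The difference of the KI effect between TE and ExEn was called for 2 of 6 members, Foxh1 and Gdf1, beside 35.3% of all genes. It was not called for Nodal (-0.76, edgeR adjusted p = 0.175), Lefty1 (0.44, edgeR adjusted p = 0.407) or Gdf3 (-0.92, edgeR adjusted p = 0.417). At an unadjusted p under 0.05 there were 5 members in TE, 4 in ExEn and 2 in the difference, and DESeq2 called 4, 4 and 2, the last being Foxh1 and Nodal. With the line or flox number as a replicate block, Lefty2 also differed between the cultures (1.67, SE 0.40, edgeR adjusted p = 0.00287), against 1.72 (SE 1.04, edgeR adjusted p = 0.262) without the block. The difference was also called for Nodal with DESeq2, at -0.76, and without TE KI 48, at -1.29 (edgeR or DESeq2 adjusted p from 8.05e-05 to 0.438 over its 12 alternatives), and for Lefty1 and Lefty2 without TE KI 27, at 0.81 and 2.27. Markers moved in the same libraries, counted by separate ranges with no share over all genes given beside them. In TE all 8 pluripotency markers were lower in KI (342.0 to 433.0 CPM against 1071 to 1108 CPM) and 7 of 8 trophoblast markers were higher. The remaining trophoblast marker, Elf5, was lower in TE KI, at a mean of 1.23 against 17.5 CPM. In ExEn all 10 endoderm markers were lower in KI. The pluripotency list was mixed there, with 4 of 8 markers higher in KI (Pou5f1 at a mean of 5.17 against 2.29 CPM) and 3 lower (Fgf5 at 3.17 against 28.5 CPM), and a sum of 56.9 to 66.7 CPM in KI against 71.0 to 75.1 CPM in flox. Their part in the member differences was not tested.

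Of the other pathway genes in TE, 9 of 25 were higher in KI and 3 lower, a share close to the 50.9% of all genes changed, with a list median of 0.10 beside 0.01 over all genes. Mixl1 (log2 change 4.42, SE 0.69, edgeR adjusted p = 0.000102) and Lhx1 (2.80, SE 0.56, edgeR adjusted p = 0.000837) rose, as did Inhbb, Acvr1b, Fst, Trim33, Eomes, Pmepa1 and Smad7. Inhba (-3.77, SE 0.47, edgeR adjusted p = 1.21e-05) and Skil were among those that fell. Mixl1, Lhx1 and Eomes are mesendoderm targets, and Eomes was also a trophoblast marker. In ExEn, 5 of 25 were higher and 9 lower, beside 35.5% of all genes, with a list median of 0.01 beside 0.00 over all genes. Without ExEn flox 2 the ExEn calls numbered 9 in place of 14. Cfc1 (-7.92, SE 1.49, edgeR adjusted p = 0.000995) and Lhx1 (-4.37, SE 0.32, edgeR adjusted p = 1.45e-07) fell most, and Smad2, Trim33, Eomes, Gsc, Mixl1 and Foxa2 also fell. Inhbb and Fst rose, each by 1.23 (edgeR adjusted p = 0.0132 and 0.0117), with Pcsk6, Drap1 and Smad7. Foxa2 was also an endoderm marker. In the difference TE minus ExEn, 9 were higher and 3 lower, beside 35.3% of all genes, led by Lhx1 at 7.17 and Mixl1 at 6.99 and, in the other direction, Inhba at -4.38 and Skil at -0.72.

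In neural cultures Nodal, Lefty1, Lefty2 and Foxh1 were at 1.29 CPM or below in every library, and Gdf1 was the abundant member. Lefty2 was lower in KI at both stages, Lefty1 at day 16, and Nodal and Foxh1 at day 8. The joint transcript of Gdf1 and Cers1 rose from progenitors to neurons in both genotypes. Cer1 and Gdf3 had at most 3 reads in any neural library and were not tested.

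Lefty2 at day 8 was 0.811 and 1.25 CPM in flox and 0.207 and 0.143 CPM in KI (log2 change -2.53, SE 0.36, edgeR adjusted p = 0.000289). At day 16 it was 1.29 and 1.28 CPM in flox and 0.259 and 0.317 CPM in KI (-1.94, SE 0.31, edgeR adjusted p = 0.000314). These levels rest on 16 to 121 reads a group, and the call held under all 8 alternatives at each day. Lefty1 at day 8 was 0.881 and 0.840 CPM in flox and 0.344 and 0.491 CPM in KI, which did not pass the test (-0.99, SE 0.38, edgeR adjusted p = 0.0927). A fit of the day 8 libraries alone called it, with an adjusted p from 0.0340 to 0.367 over 8 alternatives. At day 16 Lefty1 was 0.381 and 0.743 CPM in flox and 0.148 and 0.0501 CPM in KI (-2.26, SE 0.52, edgeR adjusted p = 0.00382).

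Nodal at day 8 was 0.464 and 0.547 CPM in flox and 0.184 in both KI libraries (log2 change -1.42, SE 0.38, edgeR adjusted p = 0.0186). At day 16 it was 0.363 and 0.436 CPM in flox and 0.278 and 0.184 CPM in KI and did not pass the test (-0.58, SE 0.36, edgeR adjusted p = 0.208). Foxh1 at day 8 was 0.811 and 0.586 CPM in flox and 0.299 and 0.307 CPM in KI (-1.15, SE 0.35, edgeR adjusted p = 0.0349). The day 8 calls of Nodal and Foxh1 were both lost with DESeq2 and without any 1 of the 4 day 8 libraries, with adjusted p from 0.0190 to 0.186 for Nodal and from 0.0324 to 0.315 for Foxh1 over 8 alternatives each. Without one of these libraries the values ran from -1.53 to -1.29 for Nodal and from -1.38 to -0.91 for Foxh1. At day 16 Foxh1 was 0.0727 and 0.154 CPM in flox and 0.0925 and 0.100 CPM in KI, with 10 and 11 reads a group.

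Gdf1 was 13.5 and 14.3 CPM in flox and 16.5 and 15.7 CPM in KI at day 8, and 86.3 and 108.6 CPM in flox and 101.1 and 83.1 CPM in KI at day 16. Between genotypes it passed the test at neither day (edgeR adjusted p = 0.239 and 0.435). From day 8 to day 16 it rose by 2.84 on the log2 scale in flox (SE 0.13, edgeR adjusted p = 8.89e-10) and by 2.72 in KI (SE 0.13, edgeR adjusted p = 8.07e-10). Foxh1 fell by 2.63 in flox (SE 0.42, edgeR adjusted p = 0.000103) and by 1.42 in KI (SE 0.48, edgeR adjusted p = 0.0161). Lefty1 fell by 1.89 in KI (SE 0.54, edgeR adjusted p = 0.00638), and in flox its change of -0.63 did not pass. The KI call of Lefty1 was lost without day 8 or day 16 KI 48, at -1.59 and -1.34 (adjusted p from 0.00173 to 0.0668 over 9 alternatives). That of Foxh1 was lost with DESeq2 and without day 16 KI 27, day 8 KI 48 or day 16 KI 48, at -1.34, -1.39 and -1.53 (adjusted p from 0.0165 to 0.0902 over 9 alternatives). In flox the change of Lefty1 passed without day 16 flox 2, at -1.14.

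Members called were 3 of 5 at day 8, where 19.5% of all genes changed, and 2 of 5 at day 16, where 46.9% did. The difference of the KI effect between the days called 0 of 5 members in edgeR, 0 at an unadjusted p under 0.05 and 0 in DESeq2, beside 33.2% of all genes. Over time 2 of 5 members were called in flox and 3 of 5 in KI, beside 77.1% and 79.9% of all genes. The day 8 flox libraries differed from each other by little more than sampling noise (chi-square of 1.50 for each degree of freedom, where the remaining pairs ran from 2.76 to 54.8), and the spread within that group may be understated. Neural progenitor markers were summed to 730.9 to 759.9 CPM in KI and 851.8 to 864.9 CPM in flox at day 8, with 3 of 5 lower and 2 higher in KI. At day 8 all 6 neuron markers and 8 of 10 endoderm markers were lower in KI, the endoderm list at 36.5 to 39.7 CPM against 114.2 to 114.5 CPM (Gata4 at a mean of 7.22 against 42.0 CPM). At day 16, 5 of 6 neuron markers were higher in KI (4358 to 4785 CPM against 2688 to 2815 CPM). Lower in KI at day 16 were 5 of 10 endoderm markers (15.6 to 25.3 CPM against 84.9 to 86.3 CPM) and 5 of 6 lateral plate markers (6.15 to 7.94 CPM against 18.4 to 18.7 CPM). Foxa2, at a mean of 0.559 against 0.124 CPM, was the 1 endoderm marker higher in KI. The share of all genes with separate ranges is not given for these cultures, which limits what such counts of markers show. Their part in the member differences was not tested.

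**Figure D4:**
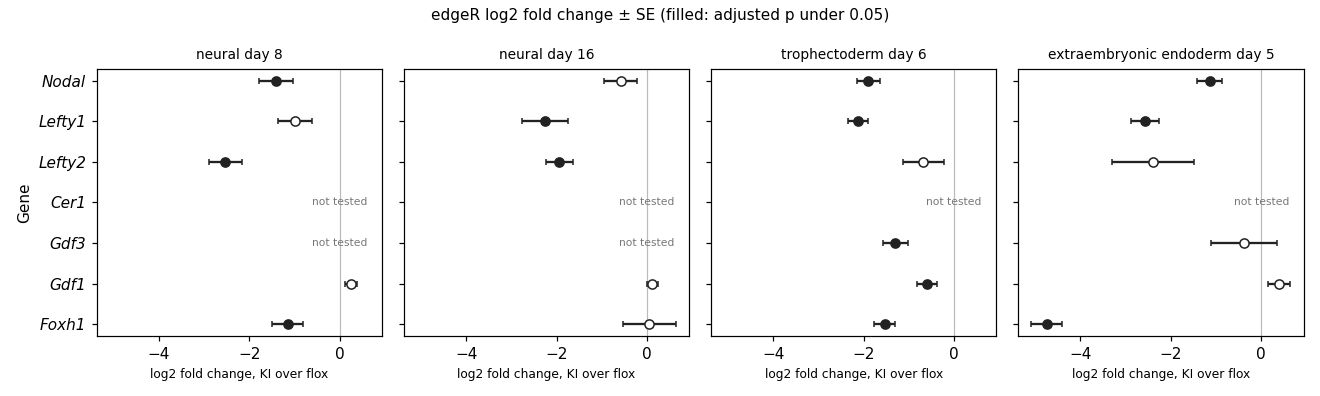
Log2 fold change of KI over flox with its SE for each tested member in neural day 8, neural day 16, TE and ExEn cultures, filled where the edgeR adjusted p was under 0.05. All filled points lie below 0, and Foxh1 in ExEn lies lowest at -4.75.

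Of the other pathway genes at neural day 8, 2 of 23 were higher in KI and 0 lower, beside 19.5% of all genes: the target Gsc (log2 change 1.36, SE 0.34, edgeR adjusted p = 0.0136) and Skil (0.59, SE 0.12, edgeR adjusted p = 0.00332). At an unadjusted p under 0.05 there were 7, and DESeq2 called 3. A fit of the day 8 groups alone called 5, and 1 was called without flox 1, flox 2 or KI 27. At day 16, 4 of 23 were higher and 8 lower, a share close to the 46.9% of all genes. Foxa2 was at 2.29 (SE 0.54, edgeR adjusted p = 0.0047). Its levels were low, from 0.267 to 0.851 CPM in KI and from 0.103 to 0.145 CPM in flox. Fst was at -1.29, Smad2 at 0.44 and Smad3 at -1.30. The receptor-regulated SMAD genes thus went in opposite directions in day 16 KI neurons. The KI effect was lower at day 16 than at day 8 for 7 genes, led by Fst at -1.81 and Smad3 at -1.20, and higher for Smad2, at 0.51, beside 33.2% of all genes. These 8 calls became 5 without day 8 flox 1 or day 8 flox 2. From day 8 to day 16, 7 rose and 10 fell in flox, and 8 rose and 12 fell in KI, shares close to the 77.1% and 79.9% of all genes. Inhbb and Inhba rose in both, by 3.37 and 2.82 in flox and by 3.01 and 2.22 in KI. Foxa2 fell in both, by 4.91 in flox and by 3.39 in KI.

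Set in order over all 18 groups, Nodal was highest in KI stem cells (mean 111.4 CPM), followed by KI and flox embryoid bodies at day 4 (104.9 and 102.0 CPM), flox stem cells (80.1 CPM), TE flox (57.9 CPM) and ExEn flox (25.8 CPM). TE KI and ExEn KI came next and overlapped, and from day 10 flox embryoid bodies downwards most neighbours overlapped. Gdf3 ran from flox stem cells (103.3 CPM) through KI stem cells, KI and flox embryoid bodies at day 4 and TE to below 1 CPM in the other 12 groups. Gdf1 had another order, with neural day 16 on top (97.5 CPM in flox and 92.1 CPM in KI, which overlapped), then E8.5 control and KI embryos (26.8 CPM in both, overlapping), KI neural day 8 (16.1 CPM), KI E9.5 embryos (15.0 CPM) and flox neural day 8 (13.9 CPM), and KI stem cells at the bottom (1.92 CPM). The KI E9.5 embryos overlapped both neural day 8 groups. This order is that of reads on the longer transcript, whose share within the shorter Gdf1 transcript differed between embryos and neural cultures.

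Among the antagonists, Lefty1 was ordered as flox stem cells, flox and KI embryoid bodies at day 4, KI stem cells and TE flox, with means of 207.7, 107.4, 62.9, 45.4 and 36.5 CPM. Lefty2 began with flox stem cells (746.1 CPM), KI and flox embryoid bodies at day 4 (163.4 and 148.9 CPM) and KI stem cells (87.4 CPM). TE flox, E8.5 KI and TE KI followed at 25.0, 15.6 and 15.3 CPM, and E8.5 KI overlapped both TE groups, which did not overlap each other. E8.5 KI thus lay among the TE libraries for Lefty2 and far below them for Nodal. Cer1 was highest in flox embryoid bodies at day 4, followed by E8.5 control (2.20 CPM), which overlapped E9.5 control (0.627 CPM) and E8.5 KI (0.581 CPM). Foxh1 was highest in embryoid bodies at day 4 (150.2 CPM in flox and 113.3 CPM in KI), then in stem cells, TE flox (29.8 CPM), E8.5 KI (22.8 CPM) and ExEn flox (21.8 CPM), of which the last pair overlapped.

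**Figure D5:**
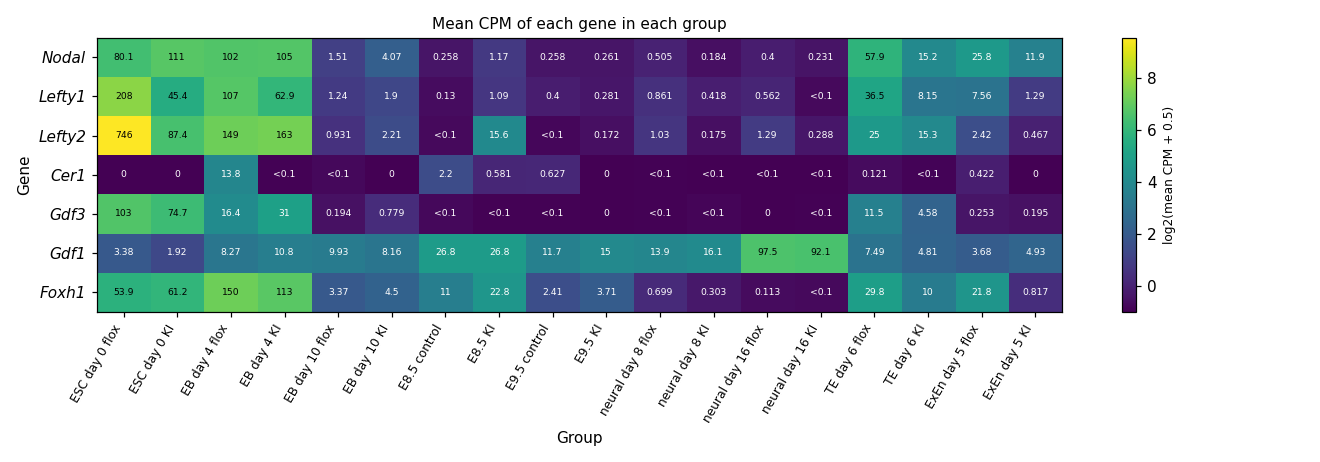
Mean CPM of each member in each of the 18 groups, printed in the cells and coloured by log2(mean CPM + 0.5). Stem cells, day 4 embryoid bodies and TE flox are bright for Nodal, Lefty1, Lefty2, Gdf3 and Foxh1, and Gdf1 is brightest in neural day 16 cultures (97.5 and 92.1 CPM).

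Levels of different members were compared per transcript length, in RPKM. Nodal was 0.780 times Gdf3 in flox stem cells and 1.50 times in KI stem cells, and at day 4 it was 6.27 times Gdf3 in flox and 3.41 times in KI. Lefty2 was 2.34 times Lefty1 in flox stem cells and 1.25 times in KI, and at day 4 it was 0.903 times in flox and 1.69 times in KI. In TE it was 0.446 times in flox and 1.22 times in KI. The balance of the Lefty genes therefore shifted towards Lefty1 in KI stem cells and towards Lefty2 in KI embryoid bodies at day 4 and KI TE cultures. Foxh1 was 1.17 times Nodal in flox and 0.952 times in KI stem cells, 2.55 and 1.87 times at day 4, and 33.8 times in E8.5 KI embryos.

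Genes most like each member were found by Pearson's r over the 18 group means of log2(CPM + 0.5), among 14244 genes with a group mean of 5 CPM or more. These groups share libraries, depth and lines, and r is a description. Nodal was most like Dppa4 (0.966), L1td1 (0.963) and Dnmt3l (0.956). Lefty1 was most like Tdgf1 (0.953), Dppa5a (0.951) and Nodal (0.949). Lefty2 was most like Lefty1 (0.947), 1700019D03Rik (0.937) and Tdgf1 (0.932), so that the pathway's co-receptor stood near both Lefty genes. Gdf3 was most like Nanog (0.992), Zyg11a (0.978) and Ephx2 (0.977). Foxh1 was most like Zscan10 (0.956), Dnmt3b (0.921) and Dbt (0.911). Nanog, Zscan10 and Dppa4 are genes of pluripotent cells. Cer1 was most like Prss22 (0.884), Msgn1 (0.842) and Alox15 (0.817), and Gdf1 was most like Cers1, as the shared transcript requires, then Gpr27 (0.969) and Pik3r2 (0.961).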

How the data were processed

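RNA was analysed in 37 libraries of 18 groups. The other 63 samples of the series, among them 1 RNA library of day 8 neural Mll3-/-;Mll4-/- cells, are not analysed here. Per the labels' protocols, poly(A) RNA was selected and libraries were made with the NEBNext Ultra II kit. The submitters' processing notes name mm9, bcl2fastq, Bowtie2, STAR and SICER 1.1, with no role given. The counting tool, its annotation and its use of strand are not given in the sources used here. Each table deposited by the authors lists 29082 transcripts, of which 28436 have a gene symbol, with a read count that the authors deposited unnormalised. The RPKM column deposited by the authors was used only to compare levels between genes. For each gene the transcript with most reads over all libraries was kept, which left 23109 entries, and CPM was computed on the table totals, from 18908148 to 59880727 reads.

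The members and gene lists were chosen with earlier results of these data known. Counts were tested with edgeR 4.0.16 in R 4.3.3 (quasi-likelihood test, filterByExpr at 10 reads, TMM, Benjamini-Hochberg over all genes, called at an adjusted p under 0.05). The neural groups shared 1 fit, as did the embryo groups, and the TE and ExEn groups were fitted together. The KI effect over the embryoid body course came from 1 fit of flox and KI. Changes between days in KI came from a fit of the KI libraries of that course alone. DESeq2 1.42.0 was an alternative, beside a fit with no filter, a sum over transcripts, a fit of the compared groups alone, other pseudocounts, TMM-scaled CPM and leaving out each library. Values of 1 gene of the list are not reported here. Named genes were all members and, of the 26 other pathway genes, up to 2 called genes with the largest change in each direction and comparison. Other called genes of 5 or fewer, and the rest of the lists given by name, were added after their values were seen. Log2 ratios used CPM + 0.5. Counting intervals are exact 95% intervals, and the folds given with them use reads pooled over the libraries of a group. Each group holds 1, 2 or 3 libraries, which limits precision. The fits were tested on simulated data.

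Replicate numbers were checked for pairing. Deviations of same-numbered E8.5 embryos from their group means correlated at 0.358, 0.444 and 0.209, so the numbers pair them. Lines 27 and 48 pair as the same cell lines across stages. At E9.5 the correlations ran from -0.03 to 0.17. Named p-values come from fits without a replicate block, so without this pairing, unless a block is stated.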

Additional observations from a re-analysis of the deposited data

Results flagged for a closer look

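The KI effect in TE differed from that in ExEn for 2 members by the test of the difference itself: Foxh1, at 3.21 on the log2 scale, and Gdf1, at -0.996. For Foxh1 both effects were below 0, and for Gdf1 they lay on opposite sides of 0.

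In the embryoid body course the log2 ratio of KI to flox changed sign between days in both KI lines for 4 members. With 1 flox library a day these differences were not tested. Lefty2 went from -3.09 at day 0 to 0.13 at day 4 and 0.90 at day 10, differences of 3.23 and 3.99. Gdf3 went from -0.47 to 0.90 and 0.88, differences of 1.36 and 1.35. Gdf1 went from -0.68 at day 0 to 0.37 at day 4, a difference of 1.05, and back to -0.27 at day 10, a difference of -0.64. Foxh1 went from 0.18 at day 0 to -0.41 at day 4, a difference of -0.59. No group held the 4 or more libraries needed to look for a single library far from the rest.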

How the results depend on the processing

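Among the tested member values, 347 of the alternative results kept their direction and their side of the threshold, 30 were no longer called, 11 became called and 7 turned sign; for all of these the cause was not tested unless fewer libraries are named. The 7 that turned sign came from leaving out 1 library: Gdf1 at neural day 16 was -0.0400 without flox 1 and -0.00583 without KI 27 (range -0.0400 to 0.30), Foxh1 at neural day 16 was -0.46 without flox 1 and -0.0143 without KI 48 (range -0.46 to 0.61), the neural difference of Gdf1 was 0.0604 without day 16 flox 2 (range -0.28 to 0.0604), Gdf3 in ExEn was 0.94 without flox 2 (range -1.08 to 0.94), and the TE minus ExEn difference of Lefty1 was -0.0734 without TE KI 48 (range -0.0734 to 0.81). Of the untested KI ratios of embryoid bodies and embryos, 6 lay on the other side of 0 in 12 alternative values, each from leaving out 1 library and each within the spread between libraries: at day 10 Lefty1 was -0.24 without KI 48 (0.46 with all) and Foxh1 -0.00023 without KI 27 (0.37), Gdf1 at E8.5 ran from 0.0054 to 0.081 without KI 1, KI 3, control 1 or control 2 (-0.0033), and at E9.5 Nodal ran from -0.16 to -0.012 without KI 2, KI 3, control 1 or control 3 (0.0060), Lefty1 was 0.035 without KI 3 (-0.20) and Lefty2 -0.18 without KI 2 (0.25). DESeq2 called 777 genes over the embryoid body course in place of 121 and 1 member at neural day 8 in place of 3. Leaving out 1 library at a time, the genes called ran from 1896 to 2362 at neural day 8 (3202 with all), 3621 to 6038 for the neural difference (5450), 3641 to 4967 in ExEn (5520), 363 to 755 at E8.5 (843), 26 to 332 over the embryoid body course (121), 4982 to 5398 from day 0 to day 4 in KI (7882), and 1603 to 1820 past 2-fold at day 10 (1082). Members called ran from 1 to 1 at neural day 8 (3), 1 to 3 over time in neural KI (3) and 1 to 4 for TE minus ExEn (2). A group left with 1 library was assumed to vary like the others.

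With the replicate number as a block, 1304 genes were called at E8.5 in place of 843, 5284 at E9.5 in place of 4560 and 5950 for TE minus ExEn in place of 5486. Over the neural cultures the block gave 5914 for the difference, 12782 over time in flox and 13219 in KI, and in KI embryoid bodies 7766 from day 0 to day 4 and 11476 from day 4 to day 10. It changed no member call other than that of Lefty2 in TE minus ExEn. At E9.5 and for flox libraries the numbers were not shown to pair the samples. Levels under 0.16 CPM lie within 3 reads of 0 in the shallowest library.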
